A study of Mus musculus with 64 samples.

Results

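To ask how the blood vessels of fat, and the signal that adipocytes send to them, differed by depot, by the loss of Nampt and by time of day, 10 genes were followed through all 64 libraries of the series: Vegfa, the vascular endothelial growth factor, and 9 genes used as markers of endothelial cells (Pecam1, Cdh5, Kdr, Flt1, Tek, Tie1, Emcn, Cldn5 and Vwf). They were chosen by name, with earlier results of these data known. The Ensembl identifiers of the count table were matched to these symbols, and these genes are 10 of 52636 rows in the table. All 10 passed the filter on low counts, as did 20249 genes in all.

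Male mice gave 2 depots, brown fat (brown adipose tissue, BAT) and the epididymal white fat pad (eWAT), both taken at zeitgeber time (ZT) 6, 10, 18 and 22, where ZT counts hours from lights on. FANKO mice carried the loxP-flanked Nampt allele (NamptTM1Jtree) together with Adiponectin-Cre, which removes Nampt, the rate-limiting enzyme of NAD+ salvage, in adipocytes. The WT controls came from the same cross and lacked the Cre. Depot, genotype and time point make 16 groups with 4 samples in each. The mice were 2 to 4 months old and ate chow. Because the Cre is driven by an adipocyte promoter, endothelial cells in FANKO fat were not themselves the target of the deletion. The labels do not say whether samples with the same number in the 2 depots came from the same mouse or whether the 4 samples of a group were 4 mice, so p-values measure the spread between these samples.

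Adipose tissue is densely supplied with capillaries, and brown fat more so than white. Adipocytes secrete VEGF-A, which binds the receptor VEGFR2 (encoded by Kdr) on endothelial cells and drives their growth, while VEGFR1 (Flt1) binds the same ligand and acts largely as a decoy. Tek (TIE2) is the receptor of the angiopoietins and Tie1 is its partner. Pecam1, Cdh5 (VE-cadherin) and Cldn5 (claudin 5) encode junction proteins that seal one endothelial cell to the next. Emcn (endomucin) is a surface mucin of capillary and venous endothelium, and Vwf (von Willebrand factor) is a clotting protein stored by endothelial cells, most of all in veins, and by platelets.

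All 10 genes are protein coding. On GRCm38 with GENCODE M21, Vegfa spans chr17:46016993-46032369 on the minus strand, Kdr chr5:75932827-75978458 and Flt1 chr5:147561604-147726011, both minus, and Cldn5 chr16:18776847-18778262 on the plus strand. Of the others, Tek and Tie1 lie on chromosome 4, Pecam1 on 11, Cdh5 on 8, Emcn on 3 and Vwf on 6. Cdh5 overlaps Gm29682 on the opposite strand, and its reads are separable from that gene only if the counting used strand, which the sources used here do not state. RefSeq promoter windows (GRCm38.p6) were at hand for 7 of the 10 genes. The 250 bases before the start are shown for the ligand, for its 2 receptors, which moved together in BAT, and for Cldn5, which moved with time of day. Capitals mark GGAA or its reverse complement TTCC, the core recognised by the ETS factors that specify endothelial cells. The windows are chr17:46032378-46032627 (minus) for Vegfa, chr5:75978456-75978705 (minus) for Kdr, chr5:147726012-147726261 (minus) for Flt1 and chr16:18776597-18776846 (plus) for Cldn5.
Vegfa: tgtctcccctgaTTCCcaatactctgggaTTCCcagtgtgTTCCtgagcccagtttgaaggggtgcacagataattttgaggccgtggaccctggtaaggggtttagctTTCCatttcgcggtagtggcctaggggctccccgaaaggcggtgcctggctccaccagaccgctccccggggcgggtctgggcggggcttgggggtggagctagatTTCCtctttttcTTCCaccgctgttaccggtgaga
Kdr: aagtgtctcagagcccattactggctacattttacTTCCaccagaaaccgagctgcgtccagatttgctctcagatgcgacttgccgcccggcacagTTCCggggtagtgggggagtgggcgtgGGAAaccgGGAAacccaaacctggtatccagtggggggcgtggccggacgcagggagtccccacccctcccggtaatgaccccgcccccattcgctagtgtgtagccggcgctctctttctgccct
Flt1: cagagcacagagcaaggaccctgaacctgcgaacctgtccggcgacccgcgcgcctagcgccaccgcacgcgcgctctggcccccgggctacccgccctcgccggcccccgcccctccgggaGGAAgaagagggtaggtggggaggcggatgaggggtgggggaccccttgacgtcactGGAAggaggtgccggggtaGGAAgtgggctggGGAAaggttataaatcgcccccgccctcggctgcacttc
Cldn5: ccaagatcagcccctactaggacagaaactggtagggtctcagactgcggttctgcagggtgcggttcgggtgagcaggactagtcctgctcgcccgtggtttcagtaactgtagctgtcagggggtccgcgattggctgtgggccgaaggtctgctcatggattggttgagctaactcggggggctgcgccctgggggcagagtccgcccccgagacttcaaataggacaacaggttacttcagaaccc
The core occurred 6 times before Vegfa, 4 times before Kdr, 4 times before Flt1 and 0 times before Cldn5. It is a common word, present on one strand or the other in 93.4% of 32851 windows of this length, with a median of 3 matches. Of the 7 members with a window, 6 held it. The hypoxia response core ACGTG, on either strand, was in none of the 7 windows and in 16.6% of all windows. The windows hold only 250 bases, and sequence farther from the start was not read for any element. The E-box CACGTG, which contains that core, was in none of the 7 and in 6.02% of all windows, the SP1 site GGGCGG was in 4 of the 7 and in 32.7%, the TATAAA box was in 1, that of Flt1, and in 12.4%, and the ERR half-site AAGGTCA was in 1, that of Emcn, and in 4.08%.

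Total counts per library ran from 6117343 to 30544847 with a median of 15826651, and each member had at least 47 reads in every library. Values below are counts scaled to library size with TMM factors and given as CPM, counts in each 1000000. Nampt itself, in the libraries, fell from 720 ± 234 CPM in WT BAT to 141 ± 18.8 in FANKO BAT and from 168 ± 58.3 in WT eWAT to 115 ± 7.57 in FANKO eWAT (SD, n = 16 each), with adjusted p of 1.09e-36 and 4.67e-09. The makeup of the tissue moved with genotype as well, in both depots. The summed CPM of 8 macrophage markers ran from 109 to 206 in WT BAT and from 661 to 1602 in FANKO BAT, that of 6 lymphocyte markers from 1.22 to 4.38 and from 47.4 to 122, that of 7 fibroblast and progenitor markers from 402 to 1173 and from 1227 to 2264, and that of 8 adipocyte markers from 14100 to 20950 and from 7069 to 12110. The sum of 6 brown adipocyte markers ran from 5240 to 11320 in WT BAT and from 1347 to 3578 in FANKO BAT. All 5 erythroid markers were called lower in FANKO BAT (median log2 -1.35), with a sum of 225 to 544.5 CPM in WT and 80.4 to 229 in FANKO, and 1 of the 5 was called in eWAT, lower. In eWAT the sums of white adipocyte markers (1586 to 3433 in WT, 787 to 1421 in FANKO), brown adipocyte markers (8.14 to 32.4 and 48.4 to 107) and progenitor markers (2285 to 3918 and 1361 to 1997) did not overlap between genotypes. Of the 6 brown adipocyte markers 3 were called higher in eWAT and 1, Dio2, lower (log2 -1.72). Cidea had the largest mean there, 5.05 CPM in WT and 40.0 in FANKO, while Ucp1 (0.55 and 1.38) was not called. The macrophage sum overlapped there (662 to 1013 and 656 to 1238), as did that of the 8 adipocyte markers. In eWAT 4 of 8 macrophage markers were called higher and 0 lower, and of 6 lymphocyte markers 3 were called higher and 2 lower. Of all genes tested, 50.3% were called in eWAT, 27.6% higher and 22.8% lower. In BAT 67.0% were called, 33.1% higher and 33.9% lower. The part of these shifts in the results below was not tested, and in whole tissue fewer endothelial cells and less RNA per cell cannot be told apart.

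Vegfa was the most abundant member per length of transcript in every combination of depot and genotype, and its level moved in opposite directions in the 2 depots. In FANKO BAT it was roughly at the level of WT eWAT, and in FANKO eWAT it rose above WT eWAT, so that the depots changed places. In WT BAT the 4 samples read 315, 315, 335 and 360.1 CPM at ZT 6, then 304, 312, 319 and 304 at ZT 10, 261, 285, 273 and 288 by ZT 18, and 294, 295, 289 and 261 by ZT 22. In FANKO BAT they read 107, 197, 182 and 119.9 at ZT 6, then 215, 161, 178 and 188 at ZT 10, 159, 149, 193 and 132 by ZT 18, and 156, 123, 117 and 119 by ZT 22. The highest FANKO BAT sample lay below the lowest WT BAT sample.
In WT eWAT the 4 samples read 156, 157, 129.9 and 136 CPM at ZT 6, then 181, 189, 160.2 and 189 at ZT 10, 155, 160.4, 161 and 183 by ZT 18, and 154, 153, 166 and 119 by ZT 22. In FANKO eWAT they read 236, 294, 205 and 266 at ZT 6, then 299.5, 222, 252 and 265 at ZT 10, 206, 238, 238 and 239.7 by ZT 18, and 202, 199, 183 and 222 by ZT 22. Within each time point every FANKO eWAT sample lay above every WT eWAT sample, although over the whole day the ranges touched.

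**Figure D1:**
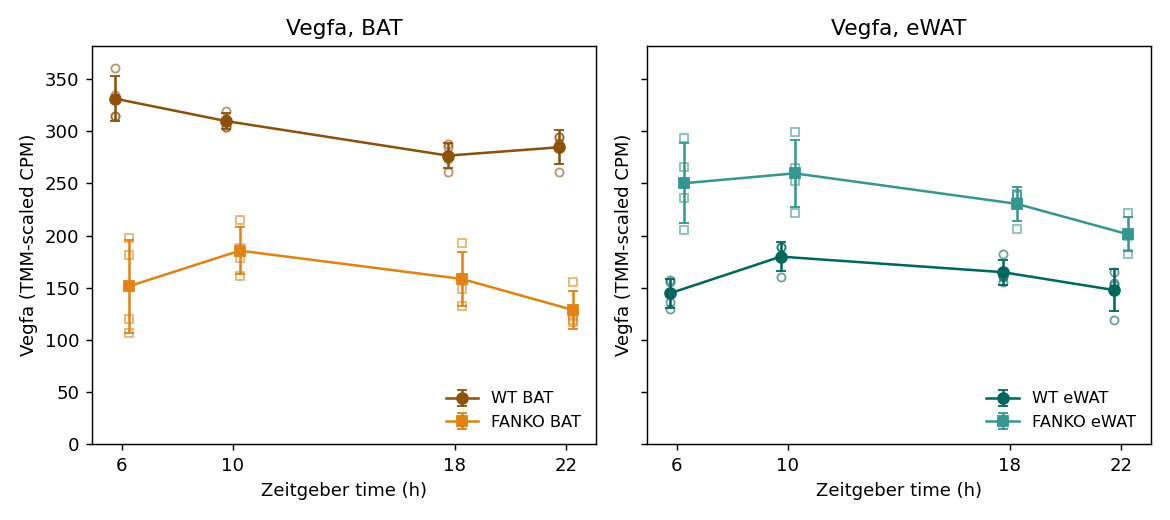
Vegfa level (TMM-scaled CPM, from 0) against zeitgeber time in hours, BAT on the left and eWAT on the right. Open symbols are single samples, filled symbols with lines the mean of 4 and bars the SD. FANKO lies below WT at every time point in BAT (107 to 215 against 261 to 360.1 CPM) and above it at every time point in eWAT.

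Over the 16 samples of each combination the means were 300.5 ± 26.1 CPM in WT BAT, 235 ± 33.7 in FANKO eWAT, 159 ± 19.95 in WT eWAT and 156 ± 33.8 in FANKO BAT (SD). The last 2 in that order overlapped almost fully. In the fit over all genes the log2 fold change of FANKO against WT was -0.95 ± 0.06 (SE, adjusted p = 4.52e-21) in BAT and 0.56 ± 0.06 (adjusted p = 1.21e-11) in eWAT. The 2 effects differed by -1.52 ± 0.09 (adjusted p = 4.07e-23). Taken by time point, Vegfa was the one member called at all 4 time points in both depots. In BAT its log2 fold change was -1.13, -0.74, -0.81 and -1.14 in the order of the clock. In eWAT it was 0.79, 0.53, 0.48 and 0.45. The exact permutation test of 4 samples against 4 gave a two-sided p of 0.0286 at each of the 8, the smallest that it allows, and 0.0636 after adjustment over the 80 tests of 10 members.

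Among the endothelial genes, a drop in FANKO BAT ran through the receptors, VE-cadherin and endomucin, was not seen in Pecam1, and was turned round in Vwf. Counting Vegfa, 8 of the 10 members were called in BAT, 7 lower and 1 higher, where 67.0% of all genes tested were called, 33.9% lower and 33.1% higher. The median log2 fold change of the 10 was -0.50, beside 0.00 for all genes.

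Kdr, the main VEGF-A receptor, ran from 133 to 238 CPM in WT BAT with a median of 195, and from 102 to 162 with a median of 121 in FANKO BAT. Its log2 fold change was -0.62 ± 0.06 (adjusted p = 2.86e-13). Flt1, the decoy receptor, ran from 77.9 to 140.2 CPM (median 101) and from 49.2 to 89.9 (median 65.3), a change of -0.61 ± 0.08 (adjusted p = 3.35e-10). The ranges of both receptors overlapped between genotypes, but no FANKO sample reached the WT median of either. Tek ran from 50.5 to 65.9 CPM in WT and from 31.4 to 49.7 in FANKO, with no overlap, and changed by -0.48 ± 0.05 (adjusted p = 4.82e-12). Tie1 ran from 40.1 to 66.1 CPM and from 28.5 to 46.0, and changed by -0.59 ± 0.06 (adjusted p = 1.84e-13). Both receptors of the angiopoietin system thus fell by nearly as much as those of VEGF-A.

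The junction genes did not move as one. Cdh5 ran from 95.3 to 138 CPM in WT BAT and from 54.9 to 102 in FANKO BAT, and changed by -0.51 ± 0.06 on the log2 scale (adjusted p = 3.5e-12). Pecam1 ran from 81.3 to 142 CPM in WT and from 75.9 to 116 in FANKO, with means of 102 ± 15.5 and 102 ± 9.54, and a log2 difference of 0.01 ± 0.04 (adjusted p = 0.881). Pecam1 is also carried by macrophages, platelets and some lymphocytes, whose marker sums are given above. Cldn5 ran from 6.14 to 26.7 CPM and from 5.24 to 24.1, a difference of -0.31 ± 0.16 that did not pass (adjusted p = 0.072). Emcn, the capillary and venous mucin, ran from 20.6 to 41.6 CPM and from 16.6 to 37.3 and fell by 0.38 ± 0.07 (adjusted p = 3.34e-06).

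Vwf went the other way. Its 16 samples ran from 17.5 to 37.8 CPM in WT BAT with a median of 23.8, and from 19.7 to 58.5 with a median of 44.8 in FANKO BAT, and 15 of 16 FANKO samples lay above the WT median. The log2 fold change was 0.72 ± 0.11 (adjusted p = 1.05e-07). Within each sample, Vwf stood 1.36 ± 0.27 log2 units below the mean of the other 8 endothelial members in WT BAT and 0.23 ± 0.35 below it in FANKO BAT (SD, n = 16), a comparison that no scaling of the libraries can move. Of 6 platelet markers 3 passed the filter, and their summed CPM ran from 5.45 to 9.14 in WT BAT and from 6.78 to 18.4 in FANKO BAT. Among these, Pf4 had a log2 fold change of 1.28 (adjusted p = 4.65e-15), Ppbp one of -0.65 (adjusted p = 0.00778) and Itga2b one of 0.19 (adjusted p = 0.265). Their part in the Vwf result was not tested.

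**Figure D2:**
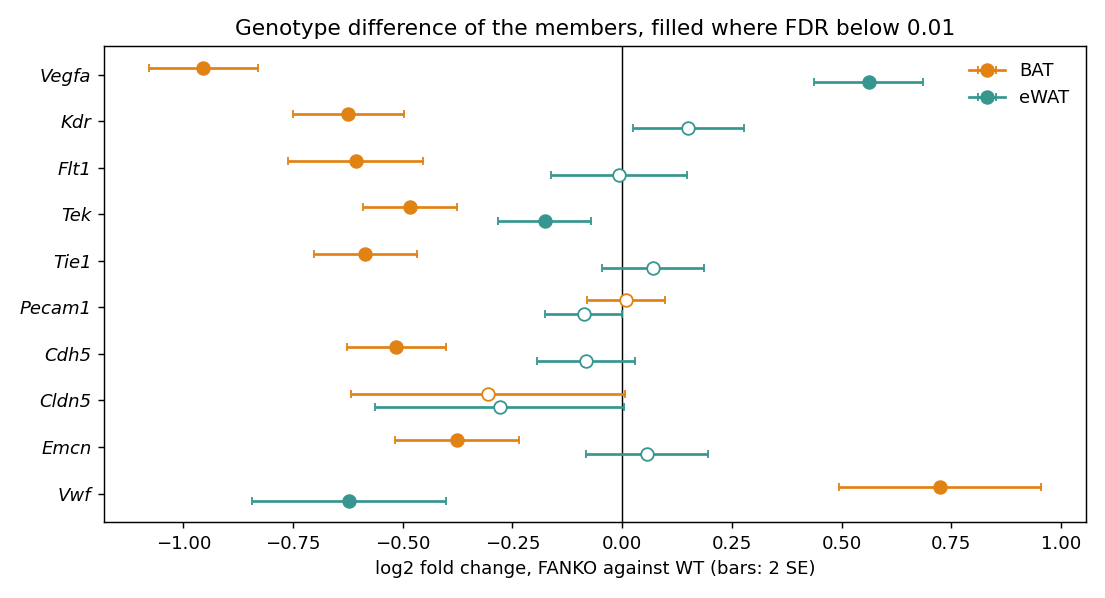
Log2 fold change of FANKO against WT for the 10 members in BAT (orange) and eWAT (green), with bars of 2 SE. Symbols are filled where the FDR was below 0.01. In BAT 7 members lie left of 0 and filled and Vwf right of 0, while in eWAT Vegfa lies at 0.56, Vwf at -0.62 and Tek at -0.18, and the other 7 are open.

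The drop of the endothelial genes in BAT is a drop relative to the rest of the transcriptome. When libraries were scaled by their total count alone, the median of all genes tested moved by 0.58 on the log2 scale, 6 of the 7 lower calls were lost (Cdh5, Kdr, Flt1, Tek, Tie1 and Emcn, with log2 values between -0.03 and 0.21), and Pecam1 at 0.59 and Vwf at 1.32 were called higher. Of all genes called in BAT, 49.4% were higher with TMM scaling and 84.9% by total count. Vegfa stayed lower at -0.38. Against the median of all genes in that scaling Kdr stood at -0.61, Cdh5 at -0.51 and Vegfa at -0.96. This repeats the TMM values, since with TMM the median of all genes was 0.00, and is no separate test. Transcripts encoded in mitochondrial DNA made up 24.6% of all reads in the median WT BAT library and 14.7% in the median FANKO BAT library, and leaving them out before TMM scaling gave 8 calls again.

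In eWAT Vegfa was higher in FANKO, and of the endothelial members Vwf and Tek were lower, so that 3 of 10 members were called, where 50.3% of all genes tested were called, 22.8% lower and 27.6% higher. The median of the 10 was -0.04 on the log2 scale, beside -0.02 for all genes. Vwf ran from 36.8 to 127 CPM in WT eWAT with a median of 58.4 and from 25.8 to 52.7 with a median of 41.6 in FANKO eWAT, and no FANKO sample reached the WT median. Its log2 fold change was -0.62 ± 0.11 (adjusted p = 2.43e-06), the reverse of that in BAT. Tek had the smallest called change, -0.18 ± 0.05 (adjusted p = 0.00333), from 52.9 ± 4.19 to 47.0 ± 6.93 CPM (SD, n = 16), and lost the call when replicate 1, 2 or 4 of every group was left out (-0.16, -0.17 and -0.18). For Kdr the difference was 0.15 ± 0.06 (adjusted p = 0.0351), for Pecam1 -0.09 ± 0.04 (0.0781), for Cdh5 -0.08 ± 0.06 (0.203), for Cldn5 -0.28 ± 0.14 (0.0843), for Tie1 0.07 ± 0.06 (0.291), for Emcn 0.06 ± 0.07 (0.493) and for Flt1 -0.01 ± 0.08 (0.947). Scaling by total count alone put the median of all genes at -0.27 and the share of higher among called genes at 21.8% (54.8% with TMM), and raised the calls to 7, adding Pecam1, Cdh5, Flt1 and Cldn5 as lower. Pecam1 was also called lower with RLE size factors, in DESeq2 (both -0.15), in a separate fit for each depot (-0.13) and without replicate 3 (-0.17).

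**Figure D3:**
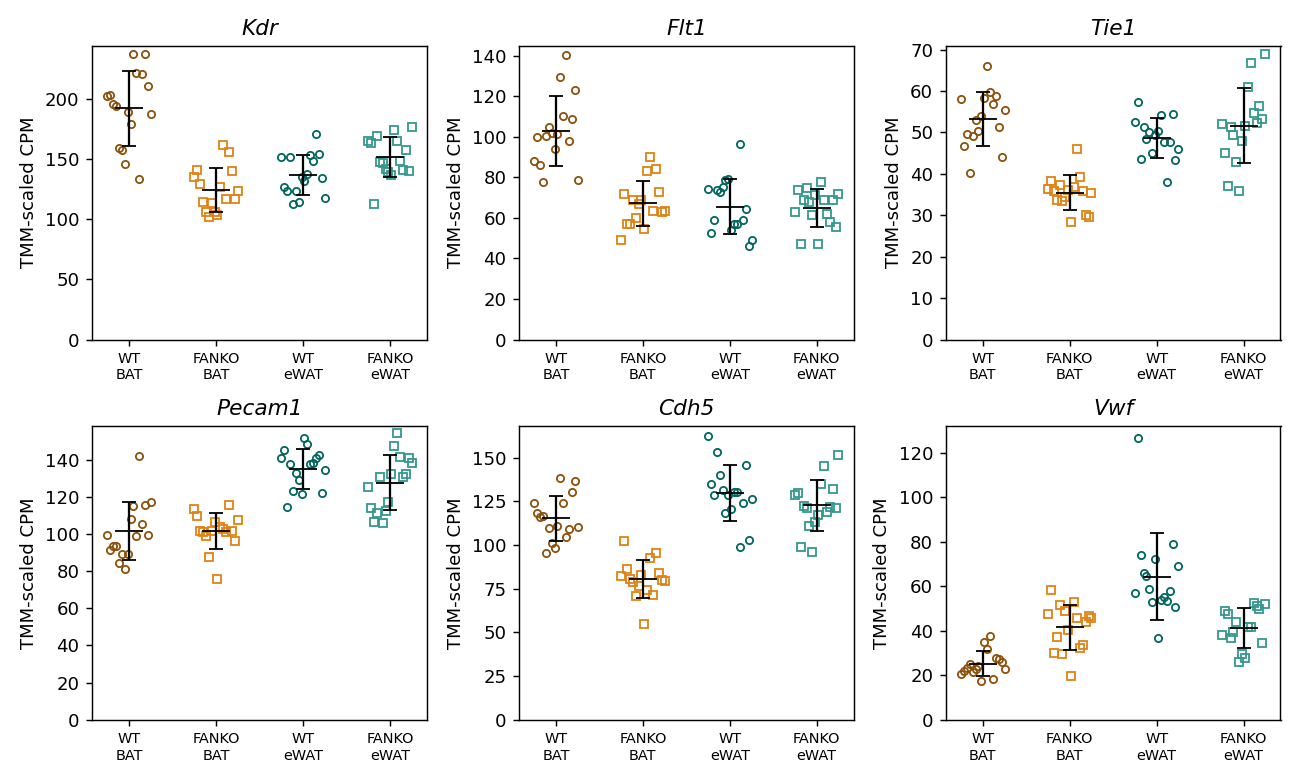
Level of 6 endothelial members (TMM-scaled CPM, from 0) in the 4 combinations of depot and genotype. Open symbols are the 16 samples of a combination over all time points, and the black marks the mean with its SD. Kdr, Flt1, Tie1 and Cdh5 are lower in FANKO BAT than in WT BAT, Pecam1 has means of 102 CPM in both, and Vwf is higher in FANKO BAT and lower in FANKO eWAT.

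Tested directly, the genotype effect differed between depots for 8 of the 10 members (64.3% of all genes tested). The difference, BAT minus eWAT, was -0.77 ± 0.09 on the log2 scale for Kdr, -0.66 ± 0.08 for Tie1, -0.60 ± 0.11 for Flt1, -0.43 ± 0.08 for Cdh5, -0.43 ± 0.10 for Emcn, -0.31 ± 0.08 for Tek and 1.35 ± 0.16 for Vwf. Pecam1 at 0.10 ± 0.06 and Cldn5 at -0.03 ± 0.21 did not pass. With libraries scaled by total count alone the sign of Cdh5, Kdr, Flt1, Tek, Tie1 and Emcn turned, while Vegfa at -0.69 and Vwf at 2.19 kept theirs. The turned values of Cdh5 (0.40), Tek (0.52) and Emcn (0.40) passed the FDR. The call of Tek was lost with RLE size factors, in DESeq2 (both -0.20) and without replicate 4 (-0.25), while Pecam1 gained one with RLE size factors, in DESeq2 (both 0.20) and by total count (0.93).

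The same values can be read as a comparison of the depots. In WT mice 8 of 10 members differed between BAT and eWAT (73.7% of all genes tested), 4 in each direction. Vegfa was higher in BAT by 0.92 ± 0.06 on the log2 scale, and with it its receptors Flt1 (0.65 ± 0.08) and Kdr (0.49 ± 0.06) and Emcn (0.43 ± 0.07). Cldn5 (-1.58 ± 0.15), Vwf (-1.34 ± 0.11), Pecam1 (-0.42 ± 0.04) and Cdh5 (-0.17 ± 0.06) were higher in eWAT. In FANKO mice 7 differed (59.7% of all genes tested), all of them higher in eWAT, namely Cldn5 (-1.60 ± 0.15), Cdh5 (-0.60 ± 0.06), Vegfa (-0.60 ± 0.06), Tie1 (-0.53 ± 0.06), Pecam1 (-0.32 ± 0.04), Kdr (-0.29 ± 0.06) and Tek (-0.22 ± 0.05). Flt1 (0.05 ± 0.08), Emcn (-0.00 ± 0.07) and Vwf (0.01 ± 0.11) did not pass there. Thus the depot difference of Cldn5 was nearly the same in both genotypes, that of Vegfa and Kdr changed sign, and that of Vwf was about 0 in FANKO. In WT the depot difference depends on the scale, since by total count alone the median of all genes stood at -0.86, Vegfa at 0.17 lost its call, and Kdr, Flt1 and Emcn turned negative, with 13.7% of called genes higher in BAT (44.3% with TMM). Of these, Kdr at -0.27 and Emcn at -0.31 were called in that direction. The call of Cdh5 in WT was lost without replicate 1, 2 or 4 (-0.12, -0.19 and -0.15), and that of Tek in FANKO with RLE factors (-0.15) or total count (-0.14).

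Per kilobase of exon, Vegfa led in WT BAT with 70.1 ± 6.08 CPM per kb, followed by Cdh5 with 27.4 ± 3.09, Kdr with 21.3 ± 3.44 and Pecam1 with 16.3 ± 2.49 (SD, n = 16). Tek (11.9 ± 0.99), Cldn5 (10.9 ± 4.38) and Tie1 (10.8 ± 1.33) did not differ beyond their spread, and Flt1 (7.61 ± 1.28), Emcn (5.52 ± 1.17) and Vwf (1.57 ± 0.35) closed the order. In WT eWAT Vegfa again led with 37.2 ± 4.66 CPM per kb, but Cldn5 with 31.8 ± 8.81 and Cdh5 with 30.9 ± 3.86 came close to it. Vwf was last in all 4 combinations.

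Because Vegfa and the endothelial genes both move with scaling, their ratio within a sample was also taken. The log2 level of Vegfa less the mean of the 9 endothelial members ran from 2.04 to 2.74 in WT BAT and from 1.12 to 2.22 in FANKO BAT, with means of 2.38 ± 0.25 and 1.72 ± 0.34 (SD, n = 16). In eWAT it ran from 0.94 to 1.60 in WT and from 1.58 to 2.42 in FANKO, with means of 1.27 ± 0.22 and 1.93 ± 0.28. The ratio thus fell by 0.66 in BAT and was higher by 0.67 in eWAT, and both FANKO means lay between the 2 WT means.

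The relation of Vegfa to each endothelial member was taken across the samples of one combination, after removing time-point means. Of 36 relations (9 members in 4 combinations, n = 16 each) 1 passed an FDR of 0.05 in the exact permutation test within time points, that of Flt1 in FANKO eWAT. There Pearson's r was 0.77 (two-sided p = 0.0008, adjusted 0.0292) and Spearman's rho 0.75 (p = 0.0015, adjusted 0.0548), and r was 0.77 without the 2 samples farthest from the median of Vegfa. This relation did not pass when any 1 replicate number was left out. Others that did not pass had r of 0.67 for Cdh5, 0.67 for Kdr and 0.68 for Tek in FANKO eWAT, and of 0.66 for Flt1, 0.58 for Cdh5, 0.55 for Tek and 0.51 for Kdr in FANKO BAT. The median r over the 9 members was 0.59 in FANKO eWAT and 0.48 in FANKO BAT, against 0.12 and 0.01 in WT of the same depots. The endothelial members were related among themselves with a median r over 36 pairs of 0.60 in FANKO BAT and 0.43 in FANKO eWAT, against 0.02 and 0.20 in WT. These points share their library and its scaling factor, and the difference between genotypes was not tested.

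With time of day, Emcn and Pecam1 were each called rhythmic in 2 of the 4 combinations. In a cosine model with a period of 24 h, 2 members were rhythmic in WT BAT (Pecam1, adjusted p = 0.000283, and Emcn, adjusted p = 0.00271), where 13.9% of genes tested were, and 3 in FANKO eWAT (Emcn, adjusted p = 0.000497, Pecam1, 0.00338, and Tie1, 0.00412), where 6.77% were. Emcn was highest at ZT 18 and lowest at ZT 6 in all 4 combinations. Its time-point means rose from 23.0 ± 2.62 to 35.1 ± 5.41 CPM in WT BAT and from 18.3 ± 2.37 to 29.7 ± 2.71 in FANKO eWAT (SD, n = 4). In WT BAT, Pecam1 went from 86.0 ± 3.75 CPM at ZT 10 to 116 ± 18.6 at ZT 18. Pecam1 also peaked at ZT 18 in eWAT of either genotype, but in FANKO BAT it was highest at ZT 6 and lowest at ZT 18. None was called in FANKO BAT (2.84% of genes) or in WT eWAT (9.38% of genes), and at an unadjusted p under 0.05 there were 5 and 4 members. Vegfa in FANKO BAT missed the threshold narrowly (adjusted p = 0.0109 in the cosine model). Its mean there was highest at ZT 10 and lowest at ZT 22, 0.53 ± 0.13 log2 units apart (SE). In WT BAT the adjusted p of Vegfa was 0.206. No member had a rhythm that differed between genotypes in BAT (2.76% of genes) or eWAT (1.15% of genes) in edgeR, at an unadjusted p under 0.05 there were 2 and 3, and DESeq2 called 1 in BAT and 0 in eWAT. Without 1 replicate number the rhythm calls came to 1 in WT BAT, Pecam1 without replicates 1 and 3 and Emcn without replicates 2 and 4, and to 0 in FANKO eWAT without replicates 2, 3 or 4.

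Cldn5 dropped at 1 time point in both depots and both genotypes. At ZT 10 its 4 samples read 6.14, 6.44, 6.78 and 7.91 CPM in WT BAT, while the 12 samples of the other time points ran from 14.6 to 26.7. In FANKO BAT they read 6.04, 5.24, 6.47 and 9.35 at ZT 10, against 7.85 to 24.1 elsewhere. In eWAT they read 28.9, 33.1, 31.3 and 24.1 in WT against 41.2 to 76.4 elsewhere, and 22.8, 22.3, 15.4 and 30.5 in FANKO against 28.9 to 54.5. The cosine model, which can only describe a smooth daily wave, did not call Cldn5 in any combination. Its miss in WT BAT was narrow (adjusted p = 0.0104 in that model). For FANKO the adjusted p was 0.0456 in BAT and 0.078 in eWAT, and for WT eWAT it was 0.347. A contrast of ZT 10 with the mean of the other 3 time points, chosen after these values were seen and fitted to all genes, gave a log2 value of -1.45 ± 0.21 (adjusted p = 8.36e-07, 4.41% of genes called) in WT BAT and of -1.04 ± 0.19 (0.000915, 0.538%) in FANKO BAT. In eWAT it gave -0.77 ± 0.17 (0.00254, 2.25%) in WT and -0.93 ± 0.18 (0.000568, 1.15%) in FANKO. The only other call among the members was Pecam1 in WT BAT, at -0.31 ± 0.07 (adjusted p = 0.00345). The depth of the Cldn5 drop did not differ between genotypes by this test, with differences of 0.41 ± 0.27 in BAT (adjusted p = 0.713) and -0.16 ± 0.23 in eWAT (0.919). The WT BAT call stood without any 1 replicate number, whereas the other 3 were each lost in 3 of 4 such fits, at log2 values between -0.61 and -0.997 (without replicate 1, 2 or 3 in both FANKO depots and without 1, 2 or 4 in WT eWAT).

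**Figure D4:**
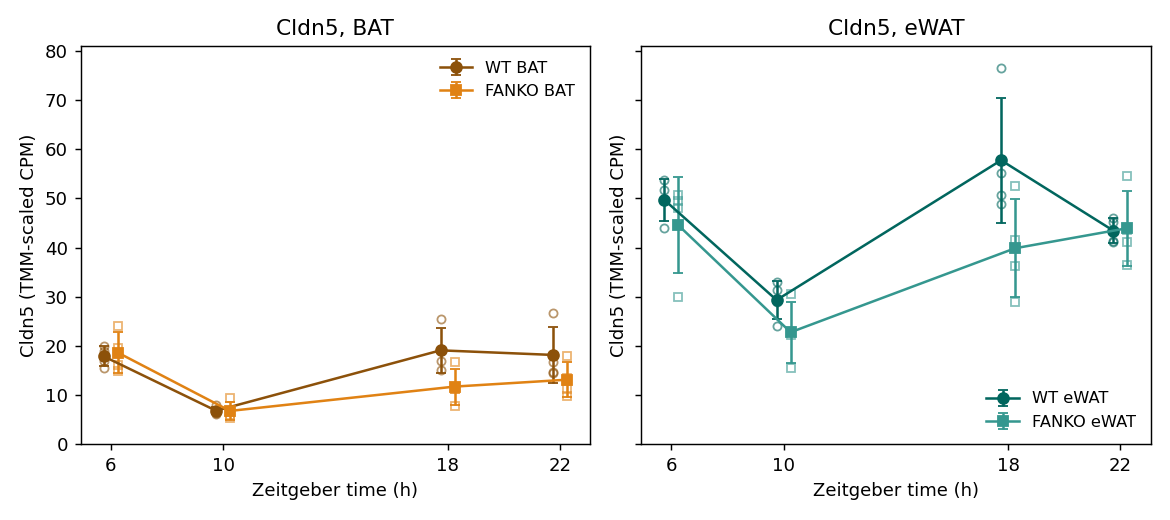
Cldn5 level (TMM-scaled CPM, from 0) against zeitgeber time in hours in BAT (left) and eWAT (right). Open symbols are single samples, filled symbols with lines the mean of 4 and bars the SD. All 4 lines have their lowest point at ZT 10, with means of 6.82 and 6.77 CPM in BAT and 29.3 and 22.8 CPM in eWAT (WT and FANKO).

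By time point, the genotype difference of the members in BAT was called for 7 members at ZT 6 (48.2% of genes tested) and for 7 at ZT 10 (45.7%). The count was 8 both at ZT 18 (44.0%) and at ZT 22 (45.3%). Kdr, Flt1, Tek, Tie1, Cdh5 and Vegfa were lower at all 4. Vwf was higher at ZT 6, ZT 10 and ZT 22 (0.93, 0.98 and 0.71) and stood at 0.28 ± 0.23 at ZT 18 (adjusted p = 0.319). Pecam1 and Cldn5 were called lower at ZT 18 only (-0.28 ± 0.09 and -0.71 ± 0.21), the time point at which WT BAT was highest in both. Their samples overlapped between genotypes there, with an exact permutation p of 0.114 for Pecam1 and 0.0571 for Cldn5. For Pecam1, FANKO replicate 1 stood apart at 75.9 CPM (nearest 101). In eWAT 3 members were called at ZT 6 (27.0% of genes) and 2 at ZT 10 (24.5%). Both ZT 18 (13.6%) and ZT 22 (20.6%) had 1. Vegfa was among them each time, with Vwf lower at ZT 6 and ZT 10 (-0.92 and -0.83) and Tek lower at ZT 6.

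The neighbours of these genes in the pathway were read from 7 hand-written lists, each given by its counts beside the background shares above. Of 17 other angiogenic ligands, 7 were higher and 4 lower in FANKO BAT (median log2 0.24), and 1 was higher and 12 lower in FANKO eWAT (median -0.46). The one that rose in eWAT, beside Vegfa itself, was Thbs1 (thrombospondin 1, an inhibitor of angiogenesis), at 0.90 ± 0.21 in eWAT, and it rose by 2.76 ± 0.25 in BAT. Apln (apelin) fell by 1.80 ± 0.17 in BAT, and Hgf (hepatocyte growth factor) fell by 0.79 ± 0.12 in eWAT and rose by 1.01 ± 0.13 in BAT.

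Of 17 other receptors of vascular cells 4 were higher and 10 lower in BAT (median -0.37), and 0 higher and 11 lower in eWAT (median -0.29). Nrp2, a co-receptor of VEGF ligands, fell by 1.32 ± 0.05 in BAT and stood at 0.01 ± 0.05 in eWAT. The Notch ligand Dll4, kept in this list as a surface protein of sprouting endothelium, fell by 0.90 ± 0.10 in BAT and by 0.34 ± 0.09 in eWAT. Ramp2, partner of the adrenomedullin receptor, fell by 0.63 ± 0.08 in eWAT, and Acvrl1, a receptor for BMP9, fell by 0.53 ± 0.06 in eWAT and rose by 0.44 ± 0.06 in BAT.

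Of 16 transcription factors of endothelium 7 were higher and 5 lower in BAT (median -0.17), and 1 higher and 5 lower in eWAT (median -0.12). Lmo2, a factor shared by endothelial and blood cells, rose by 1.91 ± 0.07 in BAT, and Tcf15, a factor of capillary endothelium, fell by 1.27 ± 0.13. The flow-responsive factors Klf4 and Klf2 fell by 0.68 ± 0.10 and 0.63 ± 0.11 in eWAT. Of 27 further endothelial genes 10 were higher and 12 lower in BAT (median -0.17), and 1 higher and 13 lower in eWAT (median -0.20). Aqp1, a water channel of capillaries, went from 241 to 71.6 CPM in BAT, a fall of 1.74 ± 0.08, while Selp (P-selectin, which captures leukocytes on venules and is also stored in platelets) rose by 1.84 ± 0.15 from a low level. In eWAT Lyve1, a marker of lymphatic vessels and of some macrophages, fell by 1.04 ± 0.12, and Nr2f2, a factor of venous identity also found in stromal cells, fell by 0.67 ± 0.08.

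**Figure D5:**
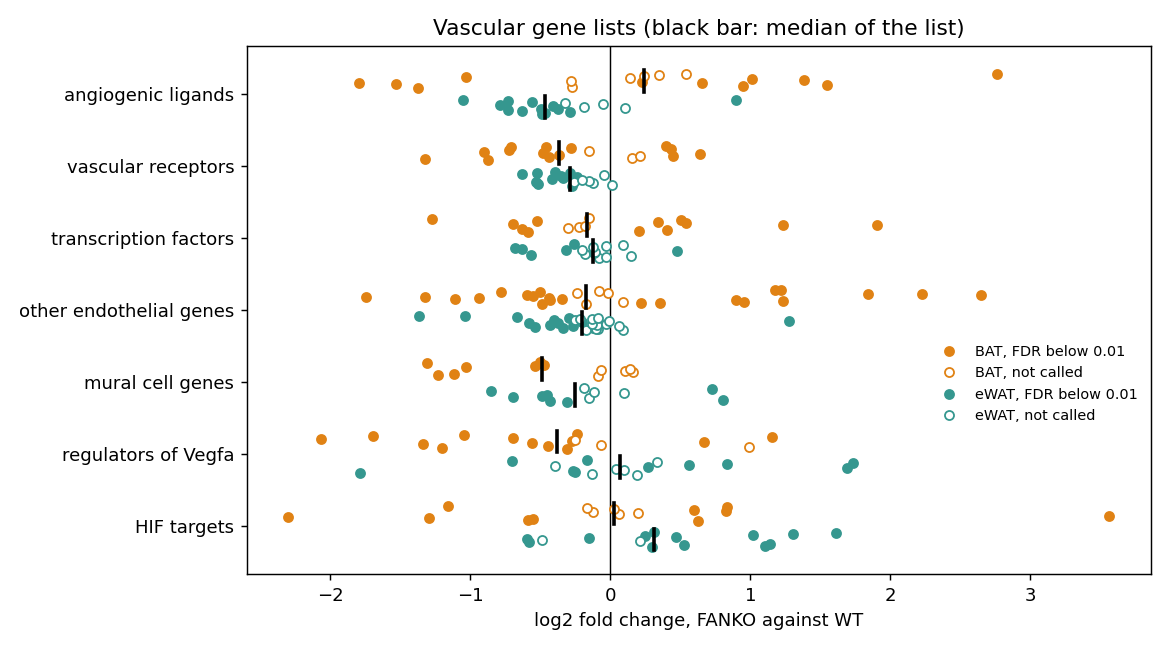
Log2 fold change of FANKO against WT for the tested genes of 7 vascular lists, 1 point per gene, in BAT (orange) and eWAT (green). Filled points passed an FDR of 0.01 and black bars are the list medians, which with TMM scaling in eWAT range from -0.46 for angiogenic ligands to 0.31 for HIF targets.

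Mural cells, the pericytes and smooth muscle that wrap the vessels, had 0 of 12 genes higher and 7 lower in BAT (median -0.49), and 2 higher and 6 lower in eWAT (median -0.25). Des (desmin) and Rgs5 fell in BAT by 1.31 ± 0.07 and 1.23 ± 0.07. In eWAT Mcam fell by 0.85 ± 0.09 while Cspg4 (NG2) rose by 0.80 ± 0.12.

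For the regulators of Vegfa the counts turned with the scaling. Of 16 such genes 2 were higher and 11 lower in BAT (median -0.38), and 5 higher and 5 lower in eWAT (median 0.07), whereas by total count alone 7 were higher and 5 lower in BAT, and 3 higher and 8 lower in eWAT. The coactivator Ppargc1b went from 99.6 to 24.4 CPM in BAT (-2.07 ± 0.12) and from 9.04 to 13.2 in eWAT (0.56 ± 0.13). Its partner Esrra (ERR alpha) went from 138 to 84.8 CPM in BAT (-0.69 ± 0.08) and from 33.5 to 59.7 in eWAT (0.83 ± 0.08). Esrrg fell by 1.69 ± 0.16 in BAT, and Egln3, a prolyl hydroxylase that marks HIF proteins for destruction, rose by 1.69 ± 0.13 in eWAT. Of 15 tested HIF targets 5 were higher and 5 lower in BAT (median 0.02), and 10 higher and 3 lower in eWAT (median 0.31). By total count alone 10 were higher and 3 lower in BAT (median 0.61). In eWAT 6 were then higher and 4 lower (median 0.07), so the larger median passed from eWAT to BAT. Pdk1, which restrains the entry of pyruvate into mitochondria, fell by 1.30 ± 0.10 in BAT and rose by 1.14 ± 0.10 in eWAT, and Bnip3, a mitophagy receptor, fell by 2.30 ± 0.10 in BAT and by 0.58 ± 0.10 in eWAT. Mif and the glycolytic enzyme Eno1 rose in eWAT by 1.61 ± 0.06 and 1.30 ± 0.11. Every change written here as a rise or a fall passed an FDR of 0.01. By total count alone the list medians moved with that of all genes. In BAT those of receptors (0.21), transcription factors (0.42), further endothelial genes (0.41), mural genes (0.09) and Vegfa regulators (0.21) turned positive, in eWAT that of the regulators turned to -0.18, and the calls of Esrra in BAT (-0.11) and Ppargc1b in eWAT (0.30) were lost. The genes called higher and lower in BAT were then 12 and 3 of the ligands, 8 and 3 of the receptors, 10 and 1 of the transcription factors, 15 and 4 of the further endothelial genes, and 5 and 4 of the mural genes. In eWAT they were 1 and 15, 0 and 16, 0 and 13, 0 and 24, and 2 and 8.

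The genes whose 16 group means of log2 CPM ran closest to Vegfa, among 12827 genes compared, were Glod4 (Pearson's r = 0.96), Rab3gap1 (0.95), Nat9 (0.95), 5730455P16Rik (0.95) and Dnajc30 (0.95). Those closest to the mean of the 9 endothelial members were Efna1 (0.97), Sept4 (0.96), Fkbp14 (0.95), Efnb2 (0.93) and Ablim3 (0.93). Efna1 and Efnb2 encode ephrin ligands found on vessel walls, and Efnb2 is the arterial one. Their log2 fold changes in BAT were -0.61 and -0.78, beside -0.18 and -0.09 in eWAT.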

How the data were processed

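Stranded total RNA libraries of 64 samples (4 in each of 16 groups) were sequenced as 38-bp paired-end reads, and the authors deposited whole-number counts per gene made with STAR 2.5.3a on GRCm38.p5 and featureCounts 1.5.3, without normalization; the options of the counting are not given in the sources used here. Here counts were analysed with edgeR 4.0.16 (R 4.3.3): filterByExpr (minimum count 10, minimum total 15), TMM factors, and a quasi-likelihood fit of a mean, cosine and sine (24 h) for each depot and genotype, or of 16 group means for single time points. P-values were adjusted by Benjamini-Hochberg over 20249 genes and compared with an FDR of 0.01. SE is of the log2 difference, and log2 CPM used a prior count of 2. DESeq2 1.42.0, limma 3.58.1, other scalings, filters and blocks were alternatives. Symbols and exonic lengths came from GENCODE M21. The fit was tested on simulated counts. The members and lists were chosen with earlier results of these data known. Named from the lists were, per depot, the 2 genes with the largest called change and a mean log2 CPM of at least 1. The sources used here state no pairing by replicate number, and the main fit has no replicate block. Counts give relative levels, and depth limits the precision of Cldn5 most, with 47 to 2178 reads per library. No 2 libraries of a group agreed within sampling noise.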

Additional observations from a re-analysis of the deposited data

Results flagged for a closer look

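The genotype effect differed between BAT and eWAT in the interaction test (edgeR, FDR below 0.01) for 8 members, with a difference, BAT minus eWAT, of -1.52 on the log2 scale for Vegfa, -0.43 for Cdh5, -0.77 for Kdr, -0.60 for Flt1, -0.31 for Tek, -0.66 for Tie1, -0.43 for Emcn and 1.35 for Vwf. Vegfa and Vwf passed with opposite signs in the 2 depots, and the others were called in BAT, with Tek lower in both.

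In 160 groups of 4 samples (10 members in 16 groups), 8 had 1 sample far from the other 3 by Dixon's test at 95%, and chance alone gives about 1 in 20. Vegfa stood at 156 CPM in FANKO BAT ZT 22 replicate 1 (nearest 123) and at 206 in FANKO eWAT ZT 18 replicate 1 (nearest 238). Pecam1 stood at 75.9 CPM in FANKO BAT ZT 18 replicate 1 (nearest 101), Flt1 at 96.6 in WT eWAT ZT 18 replicate 4 (nearest 57.2), and Vwf at 36.8 in WT eWAT ZT 18 replicate 1 (nearest 53.4) and at 34.7 in FANKO eWAT ZT 22 replicate 3. The library of FANKO eWAT ZT 6 replicate 3 was low in both Kdr (113 CPM, nearest 163.5) and Cldn5 (30.0 CPM, nearest 48.0).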

How the results depend on the processing

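The members called with genotype in BAT (8), between depots (8 in WT, 7 in FANKO) and in the interaction (8) stayed within 1.5 times that number under every alternative run, except that scaling by total count alone gave 3 in BAT. By total count the number held in the interaction and between depots in WT, but not the genes. In the interaction Cdh5, Tek and Emcn were called with the opposite sign. Pecam1 and Cldn5 were added there, and Kdr, Flt1 and Tie1 were lost. Between depots in WT, Kdr and Emcn were called with the opposite sign, Tek and Tie1 were added, and Vegfa and Flt1 were lost. That scaling also gave 7 in eWAT for 3, 20 of 80 at single time points for 37, 0 rhythmic in WT BAT for 2, 1 rhythmic in FANKO eWAT for 3, and 5 Vegfa relations for 1. Leaving out 1 replicate number gave 1 rhythmic in WT BAT, 0 to 3 in FANKO eWAT, 1 to 4 of 5 for the ZT 10 contrast, 25 to 28 at single time points, and 0 Vegfa relations. A separate fit for each depot gave 1 in WT BAT. In FANKO BAT, where 0 were rhythmic, limma-voom, RLE, TMM without mitochondrial genes, the CPM filter and DESeq2 gave 1 each, as did the replicate block and the joint test of 4 time points, and an FDR of 0.05 gave 3. In WT eWAT, for 0, an FDR of 0.05 and the joint test gave 1 each. For rhythm differences in BAT, for 0, an FDR of 0.05 and DESeq2 gave 1 each. The cause was not tested.

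The labels do not say that equal replicate numbers pair samples, but in the data same-numbered samples were more alike. Their deviations from the group means correlated between depots with a median r of 0.12, over 0.1 in 18 of 32 pairs, against -0.03 and 20 of 96 pairs for other numbers, and 38 of 64 samples correlated best with their own number in the other depot. Over any 2 groups, whatever their depot, genotype or time point, the median r was 0.07 for the same number, with 194 of 480 pairs over 0.1. For other numbers it was -0.02, with 220 of 1440 pairs. The likeness thus followed the replicate number beyond the depot pairs, and whether any pair shared a mouse was not tested. It is a hint from the data, and not every same-numbered pair exceeded 0.1. With the replicate block the calls with genotype numbered 8 in BAT and 3 in eWAT, and the block changed no other count by over 1.5 times than that in FANKO BAT. Of 724 single-gene values, 648 kept direction and side of the threshold, 24 lost the call, 12 gained it and 40 changed sign. Total count alone gave 20 of those 40, and they included values that were called and far from 0 in the main fit. Examples are Kdr (-0.77) and Tie1 (-0.66) in the interaction, Flt1 (0.65) between depots in WT and Cdh5 (-0.51) in BAT. Under total count alone the log2 values turned to 0.0755 for Cdh5, 0.10 for Tek, 0.21 for Emcn and 0.28 for Cldn5 in BAT, to -0.10 for Kdr, -0.18 for Tie1 and -0.19 for Emcn in eWAT, to -0.27 for Kdr, -0.11 for Flt1, -0.66 for Tek, -0.62 for Tie1 and -0.31 for Emcn between depots in WT, and in the interaction to 0.40 for Cdh5, 0.0646 for Kdr, 0.24 for Flt1, 0.52 for Tek, 0.18 for Tie1, 0.40 for Emcn and 0.81 for Cldn5. Small values also turned for Pecam1 in BAT without mitochondrial genes (-0.0107), Emcn in eWAT with RLE (-0.001) and DESeq2 (-0.0009), Flt1 in eWAT without 1 replicate (-0.0855 to 0.0371), Emcn between depots in FANKO (0.0738 with RLE and with DESeq2, 0.0824 with total count, 0.0198 without mitochondrial genes, 0.0159 without the low-count filter, 0.0101 with the CPM filter, -0.0175 to 0.0315 without 1 replicate), Vwf between depots in FANKO (-0.0136 with limma-voom, -0.0146 to 0.0558 without 1 replicate, -0.0042 with the replicate block within genotype and time point) and Cldn5 in the interaction (0.0801 with RLE, 0.0887 with DESeq2, 0.0111 without the filter, -0.1153 to 0.0854 without 1 replicate). A prior count of 0.5 left the Vegfa ratio at -0.66 in BAT and 0.67 in eWAT.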
